A study of Mus musculus with 6 samples.

Results

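The nuclear genome supplies most subunits of the respiratory chain and all subunits of the catalytic head of ATP synthase, and these genes were followed here in Pdx1-lineage cells of *mir-302* WT and KO mouse embryos. Genes were taken by symbol, as the protein-coding genes whose names mark them as subunits of NADH dehydrogenase (complex I), succinate dehydrogenase (complex II), the cytochrome bc1 complex (complex III), cytochrome c oxidase (complex IV) or ATP synthase (complex V). The rule found 84 genes with 83 symbols among 55414 genes, of which 52081 had a symbol. They comprised 37 genes of complex I, 4 of complex II, 9 of complex III, 16 of complex IV and 18 of complex V. A further 12 genes had matching symbols but were pseudogenes or not protein-coding, and were not counted as members. *Atp5o* appeared under 2 identifiers, of which the second had 0 counts in all libraries and lies entirely within the exons of other genes. Symbols do not follow every current assignment: *Ndufa4* was grouped with complex I by its name, although its product is now placed in cytochrome c oxidase, and the product of *Cox7a2l* is known for joining complexes into supercomplexes rather than as a core subunit. *Atp5s* has the symbol *Dmac2l* in RefSeq and was kept in complex V by the symbol used here.

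Complexes I and II pass electrons from NADH and succinate to ubiquinone, complex III passes them on to cytochrome c, and complex IV reduces oxygen to water. The proton gradient built by complexes I, III and IV drives ATP synthase. Mitochondrial DNA encodes a small set of core subunits of complexes I, III, IV and V and none of complex II, so that most complexes are assembled from the products of both genomes. Embryonic progenitors that proliferate quickly rely to a large extent on glycolysis, and oxidative subunits are known to increase as tissues mature.

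The libraries came from cells sorted from the trunk region of embryos at E10.5 (embryonic day), and 3 libraries were available for each genotype. All embryos carried *Pdx1-Cre* and a Cre-activated tdTomato reporter. WT embryos were miR-302WT and KO embryos miR-302KO, both from crosses of miR-302+/- parents, so that the KO embryos lacked the miRNA cluster throughout the body. *Pdx1-Cre* marks every descendant of cells that expressed *Pdx1*, which include foregut cells beside the pancreatic buds, and the labels do not state how many embryos were joined in a library. Nothing in the labels says whether replicates came from separate litters, so p-values measure only the spread between these libraries, which may in part be technical. Total counts ran from 17352498 to 26634523 per library. The 5 genes of the *mir-302* cluster had 0 counts, other than 2 counts of *Mir302d* in KO replicate 3, and since libraries of polyadenylated RNA do not capture mature miRNAs, this does not check the genotype labels.

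The summed level of 9 pancreatic progenitor markers, among them *Pdx1*, *Sox9* and *Ptf1a*, ran from 771 to 1010.5 CPM (counts relative to the library total after TMM scaling), and the groups overlapped. Among the 9, *Gata4* rose by DESeq2 (215 ± 38.6 CPM across WT, 332 ± 9.93 CPM across KO, log2 fold change 0.63, DESeq2 adjusted p 0.000919, edgeR adjusted p 0.14), and *Mnx1* had a log2 fold change of 1.21 with an edgeR adjusted p of 0.415. The 9 did not move together: 5 were above 0 and 4 below, with a median log2 fold change of 0.02 and a lowest of -0.19. Other cell types differed more between libraries. Hemoglobin and other erythroid genes summed to 13441 CPM in WT replicate 3, 5300 CPM in KO replicate 1 and 287 CPM in KO replicate 3, and to between 0.855 and 2.29 CPM in the remaining libraries. Mesenchyme markers ranged from 6.49 CPM in KO replicate 2 to 774 CPM in KO replicate 3, and hepatoblast markers from 543 CPM in KO replicate 2 to 1829 CPM in KO replicate 3. In sorted bulk RNA, fewer cells of a type and less RNA per cell cannot be told apart.

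The promoters of 68 of the 83 symbols were found in a RefSeq table of the GRCm38.p6 build, which gives 250 bases before to 50 bases after each transcription start. NRF1, GABP and YY1 are transcription factors known from respiratory chain promoters, and the core letters of their motifs were searched on both strands. The NRF1 core GCATGCG occurred at 11 of the 68 genes, or 16.2%, beside 4.01% of all 27025 genes in the table. The GABP core CCGGAAG, which other ETS factors share, occurred at 16 genes (23.5%, beside 9.93% of all genes). The YY1 core ATGGCGG occurred at 10 genes (14.7%, beside 4.69% of all genes). Promoters of the members were also richer in G and C, with a median of 57.3% beside 52.7% over all entries, and how far this accounts for the shares was not tested. A match of letters is a description and not a measured binding site.

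The 5 sequences below are printed because they belong to members on which the following results turn or hold several motifs. Each is written 5′ to 3′ on the strand of the gene, with the motif letters in capitals.
Atp5b, chr10:128083057-128083356, plus strand: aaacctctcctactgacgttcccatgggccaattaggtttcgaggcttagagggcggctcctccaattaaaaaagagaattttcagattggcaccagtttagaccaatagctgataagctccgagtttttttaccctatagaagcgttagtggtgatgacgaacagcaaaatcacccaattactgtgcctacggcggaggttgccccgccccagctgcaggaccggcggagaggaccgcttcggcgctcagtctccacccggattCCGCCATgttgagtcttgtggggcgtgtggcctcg
Cox8a, chr19:7217567-7217866, minus strand: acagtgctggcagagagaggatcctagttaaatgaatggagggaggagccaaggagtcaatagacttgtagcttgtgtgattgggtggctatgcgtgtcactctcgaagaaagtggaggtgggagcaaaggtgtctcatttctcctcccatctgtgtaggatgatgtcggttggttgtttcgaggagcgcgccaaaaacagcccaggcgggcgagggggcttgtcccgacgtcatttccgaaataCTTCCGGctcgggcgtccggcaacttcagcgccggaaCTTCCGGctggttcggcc
Uqcrc1, chr9:108936398-108936697, plus strand: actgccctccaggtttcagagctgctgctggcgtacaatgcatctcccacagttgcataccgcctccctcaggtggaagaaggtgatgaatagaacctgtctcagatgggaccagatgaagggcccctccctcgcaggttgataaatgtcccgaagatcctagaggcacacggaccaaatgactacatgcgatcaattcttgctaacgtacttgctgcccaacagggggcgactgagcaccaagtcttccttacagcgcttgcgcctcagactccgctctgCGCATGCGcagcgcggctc
Sdhb, chr4:140961021-140961320, plus strand: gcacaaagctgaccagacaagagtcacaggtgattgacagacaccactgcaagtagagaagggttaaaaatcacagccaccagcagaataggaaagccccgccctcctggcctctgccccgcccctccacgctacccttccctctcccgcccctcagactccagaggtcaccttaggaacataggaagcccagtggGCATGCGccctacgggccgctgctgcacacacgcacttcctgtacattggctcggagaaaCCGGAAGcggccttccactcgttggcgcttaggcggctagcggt
Atp5j, chr16:84834927-84835226, minus strand: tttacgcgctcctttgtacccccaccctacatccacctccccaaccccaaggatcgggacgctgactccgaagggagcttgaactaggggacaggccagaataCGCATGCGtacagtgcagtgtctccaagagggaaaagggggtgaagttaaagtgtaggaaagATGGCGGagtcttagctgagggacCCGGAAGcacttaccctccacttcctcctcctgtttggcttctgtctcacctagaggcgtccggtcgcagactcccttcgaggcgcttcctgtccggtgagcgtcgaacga
*Atp5b*, the most abundant member, held a YY1 core on the opposite strand that begins at position 16 after the start. *Cox8a* held the GABP core on the opposite strand at positions -5 and 33. *Uqcrc1* held an NRF1 core that reads the same on both strands, from position 32. *Sdhb* combined an NRF1 core at -54 with a GABP core at 7, and *Atp5j* held all 3 motifs, at -147, -85 and -61. *Atp5j* lies head to head with *Gabpa*, the gene of a GABP subunit, and 12.7% of its exonic bases overlap that gene on the opposite strand.

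Members were abundant transcripts in WT cells. Together they took 1.52%, 1.44% and 1.41% of all counts in WT replicates 1, 2 and 3, and *Atp5b*, which encodes the catalytic β-subunit of ATP synthase, alone made up 17.7% of the members' counts. *Atp5b* and *Atp5a1*, which encodes the α-subunit, together made up 26.8%. Of the 84 members, 78 passed the filter on low counts, and the 6 that did not were the isoform genes *Cox6a2*, *Cox7b2*, *Cox8b*, *Cox8c* and *Ndufa4l2* and the second identifier of *Atp5o*.

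Levels between genes were compared as CPM per kb of the longest protein-coding transcript. *Atp5b* stood at 1365 ± 56.3 CPM per kb (SD, n = 3) in WT cells, above every other member of complex V. The next was *Atp5g3*, a gene of the membrane-embedded c-ring, at 508 CPM per kb, followed by *Atp5a1* at 486 CPM per kb. In complex IV *Cox8a* was the highest at 383 CPM per kb, and in complex III *Uqcr11* was at 391 CPM per kb beside *Uqcrc1* at 384 CPM per kb. *Sdhd*, a membrane anchor of complex II, was at 285 CPM per kb and *Ndufa7* of complex I at 284 CPM per kb. The medians of the tested members were 101 CPM per kb for complex I, 223 for complex II, 226 for complex III, 138 for complex IV and 178 for complex V. The order depends on the transcript taken as the length. Per kb of the median protein-coding transcript, *Uqcrc1* led complex III at 1191 CPM per kb, *Ndufa4* complex I at 343 CPM per kb and *Sdha* complex II at 317 CPM per kb, while *Cox8a* and *Atp5b* still led complexes IV and V.

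The comparison of KO with WT asked whether loss of *mir-302* came with a different expression of these genes. By quasi-likelihood F tests in edgeR, adjusted by Benjamini-Hochberg over all 16353 genes tested, 0 of the 78 members were called at an adjusted p under 0.05, as were 0 genes overall (0%), and the smallest adjusted p of a member was 0.34. At an unadjusted p under 0.05, 6 members passed, or 7.69%, beside 10.4% of all genes tested. All 6 were lower in KO, a direction in which 3.97% of all genes passed, and 0 members passed in the higher direction beside 6.42% of all genes. Without the filter on low counts edgeR called 0 members as well, beside 0.875% of 30187 genes. DESeq2 called 0 members, beside 4.87% of the genes to which it gave an adjusted p, and 3 members had an unadjusted p under 0.05, beside 6.11% of genes with a p. Of these *Atp5mpl* and *Cox8a* were lower and *Uqcrc1* was higher in KO. The one-sided split in edgeR thus depended on the setting: *Uqcrc1* also passed, as higher, with DESeq2 size factors, without the filter, with the newer estimate of the spread, and without WT replicate 1 or KO replicate 1.

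The differences were small and were bounded closely for most members. The 95% interval of the KO to WT difference lay within 1.5-fold in both directions for 74 of 78 members, or 94.9%, beside 42.4% of all genes tested. The 4 members whose interval reached past 1.5-fold were *Atp5g2*, *Cox6b2*, *Cox7a1* and *Ndufb2*, and only those of *Cox6b2* and *Cox7a1* reached past 2-fold. Fitted log2 fold changes ran from -0.54 for *Cox6b2* to 0.25 for *Uqcrc1*. The median was -0.10, beside -0.02 over all genes tested, and 58 of 78 members (74.4%) were below 0, beside 54.4% of all genes. In 15 members every KO library was below every WT library, or 19.2%, beside 7.99% of all genes tested. No member had every KO library above every WT library, a pattern seen in 8.36% of all genes.

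**Figure D1:**
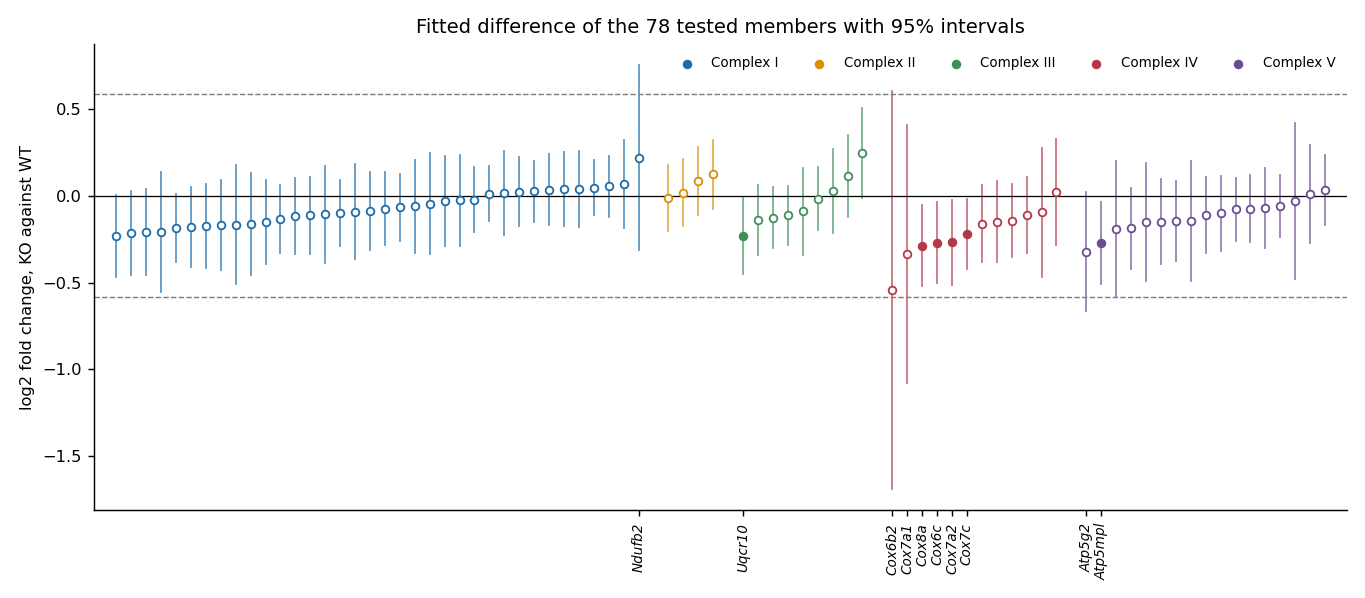
Fitted log2 fold change of KO against WT (y axis) for each of the 78 tested members, grouped by complex and ordered by value, from 3 libraries per genotype. Symbols are given for members with an unadjusted p under 0.05 or an interval past 1.5-fold. Vertical lines are 95% intervals, filled points have an unadjusted p under 0.05, and dashed lines mark 1.5-fold; 6 points are filled and all of them lie below 0.

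Complex IV, the terminal oxidase, held 4 of the 6 members with an unadjusted p under 0.05. In that direction 3.97% of all genes tested passed. Of its 12 tested members 11 were below 0, beside 54.4% of all genes tested, with a median log2 fold change of -0.19. A longest protein-coding transcript under 1 kb was found for 10 of the 12. Short transcripts outside the complex were lower as well, and with offsets for length and GC content its median was -0.05, as given below. *Cox8a* (ENSMUSG00000035885.6), which encodes the ubiquitous form of subunit 8, was at 211, 213 and 208 CPM in WT replicates 1, 2 and 3, against 173, 194 and 151 CPM in the KO replicates in the same order. All KO libraries were below all WT libraries, and WT libraries were far closer to each other than KO libraries. Its log2 fold change was -0.29 (SE 0.099, 95% interval -0.52 to -0.05), with an edgeR adjusted p of 0.34.

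*Cox6c*, a small membrane subunit gene, was at 138, 142 and 146 CPM across WT and at 117, 133 and 104 CPM across KO. Its log2 fold change was -0.27 (SE 0.1, edgeR adjusted p 0.391). *Cox7a2* was at 133 CPM in each WT library and at 114, 123.1 and 94.0 CPM across KO. Both genes again had their lowest value in KO replicate 3 and no overlap between groups.

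*Cox7c* was at 95.5, 103 and 101 CPM across WT and 88.7, 90.1 and 78.1 CPM across KO. *Cox5b*, *Cox6a1*, *Cox6b1* and *Cox7b* had log2 fold changes between -0.16 and -0.11, each with an edgeR adjusted p of 0.65 or more. *Cox7a2l* was the single tested member of the complex above 0, at 77.4 ± 5.78 CPM (SD, n = 3) in WT and 78.7 ± 13.2 CPM across KO. *Cox4i1*, which encodes the common form of subunit 4 and is not taken by the symbol rule, was at 287 ± 19.7 CPM across WT and 249.4 ± 22.9 CPM across KO (log2 fold change -0.20, edgeR adjusted p 0.541).

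Complex I, the NADH dehydrogenase, had 36 tested members, and 0 of them had an unadjusted p under 0.05, beside 10.4% of all genes. Their median log2 fold change was -0.08 and 25 were below 0 (69.4%, beside 54.4% of all genes tested). *Ndufc1*, an accessory subunit gene, had the smallest p and was at 49.3, 50.3 and 49.1 CPM across WT and 41.6, 45.1 and 40.2 CPM across KO (log2 fold change -0.23, SE 0.101, edgeR adjusted p 0.494). *Ndufa4* was at 158, 164 and 152 CPM across WT and 143, 147 and 126 CPM across KO. The groups did not overlap for either gene. *Ndufa7*, the complex I member with the highest level per length, overlapped between groups, with 150.1 ± 1.78 CPM across WT and 143 ± 12.6 CPM across KO.

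The nuclear genes of the catalytic core of complex I, which carry the flavin and the iron-sulfur clusters, lay close to 0. *Ndufs1* was at 189 ± 14.7 CPM across WT and 186 ± 6.44 CPM across KO (SD, n = 3 each). *Ndufv1*, which encodes the NADH-binding subunit, was at 193 ± 10.3 CPM across WT and 201 ± 9.34 CPM across KO. *Ndufab1*, the acyl carrier protein of complex I, which the rule does not take, was at 58.4 ± 0.558 CPM across WT and 56.2 ± 3.22 CPM across KO.

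Complex II, which also acts in the tricarboxylic acid cycle, had 3 of its 4 genes above 0 and a median log2 fold change of 0.05. *Sdha*, the flavoprotein that oxidizes succinate, was at 590.1, 581 and 549.7 CPM across WT and 625, 584 and 667 CPM across KO (log2 fold change 0.12, SE 0.0841, edgeR adjusted p 0.713). *Sdhb*, the iron-sulfur subunit gene, was at 307, 267 and 276 CPM across WT and 305, 312 and 287 CPM across KO. The groups overlapped for both. *Sdhc* (98.2 ± 4.09 CPM in WT, 99.4 ± 7.25 CPM across KO) and *Sdhd* (350.3 ± 21.9 CPM in WT, 347 ± 10.3 CPM across KO) anchor the complex in the membrane, and their 95% intervals ran from -0.18 to 0.21 and from -0.20 to 0.18.

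Complex III contained both the member furthest above 0 and a short member below it. *Uqcrc1* (ENSMUSG00000025651.15), a core protein that faces the matrix, was at 712, 637 and 555 CPM across WT and 700.3, 780.1 and 778.5 CPM across KO. KO replicates 2 and 3 were above all WT libraries, while KO replicate 1 was below WT replicate 1. Its log2 fold change was 0.25 (SE 0.11), with an unadjusted p of 0.0592 and an adjusted p of 0.502 by edgeR. With DESeq2 the unadjusted p was 0.0292 and the adjusted p 0.308.

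*Cyc1*, which encodes the cytochrome c1 of complex III, was at 361 ± 33.3 CPM across WT and 391 ± 28.8 CPM across KO, with a log2 fold change of 0.12. *Uqcr10*, a small subunit gene, was at 103, 95.3 and 97.8 CPM across WT and at 86.4, 91.5 and 74.8 CPM across KO without overlap (log2 fold change -0.23, SE 0.0948, edgeR adjusted p 0.459). *Uqcr11* was at 174 ± 13.8 CPM across WT and 178 ± 19.4 CPM across KO, and *Uqcrh* at 106 ± 3.96 CPM and 98.3 ± 4.51 CPM. The like-named pseudogenes *Uqcrh-ps1* and *Uqcrh-ps2* had 7 counts and 1 count over all libraries. *Cycs*, the somatic cytochrome c that carries electrons from complex III to complex IV, was at 226 ± 12.97 CPM across WT and 229.7 ± 13.3 CPM across KO.

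Complex V, the ATP synthase, had 15 of 17 tested members below 0, beside 54.4% of all genes, and a median log2 fold change of -0.11. *Atp5b* was at 2740.4, 2546 and 2562 CPM across WT and 2393, 2703 and 2447 CPM across KO. Its groups overlapped and its 95% interval ran from -0.24 to 0.12. *Atp5a1* was at 1299 ± 64.9 CPM across WT and 1330.1 ± 105 CPM across KO.

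*Atp5mpl*, the gene of a small proteolipid bound to the synthase, had the smallest p of the complex. It was at 82.7, 79.8 and 75.8 CPM across WT and 64.7, 73.3 and 59.5 CPM across KO, without overlap (log2 fold change -0.27, SE 0.101, edgeR adjusted p 0.391). *Atp5g2* was at 88.0, 90.9 and 98.7 CPM across WT and 69.8, 91.1 and 61.5 CPM across KO, so that KO replicate 2 lay inside the WT range (log2 fold change -0.32, edgeR adjusted p 0.521). *Atp5o*, which encodes the subunit that links the head to the stalk, had 19.5 ± 0.309 CPM across WT and 19.7 ± 0.161 CPM across KO, and 47.9% of its exonic bases are shared with other genes, so that its count is uncertain.

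Libraries of one genotype did not behave alike. The members varied little among WT libraries, with a median coefficient of variation of 4.76%, beside 13.7% for all genes tested, and among KO libraries the values were 8.77% and 15.5%. KO replicate 3 was the lowest of the 6 libraries for 54 of 78 members, or 69.2%, beside 17.7% of all genes tested. As the median over members of log2 CPM less each gene's mean, WT replicates stood at 0.10, 0.03 and 0.02, KO replicate 1 at -0.03, KO replicate 2 at 0.06 and KO replicate 3 at -0.17. KO replicate 2 was thus above WT replicates 2 and 3.

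Leaving KO replicate 3 out moved the median log2 fold change of the members from -0.10 to 0.00 (-0.004), with 40 of 78 below 0 and 0 members at an unadjusted p under 0.05 in edgeR. In 15 members both remaining KO libraries were then below all WT libraries, or 19.2%, beside 15.6% of all genes for this smaller set of libraries. Without KO replicate 2 the same count was 45, or 57.7%, beside 15.6%, and the median was -0.14 with 10 members at an unadjusted p under 0.05. With single libraries left out, the median thus came closest to 0 without KO replicate 3 and lay furthest below 0 without KO replicate 2. KO replicate 1 also stood below all WT libraries on the scale above, at -0.03. The count at an unadjusted p under 0.05 was also smaller without other libraries, with 2 members without WT replicate 1, 1 without KO replicate 1, and 0 without WT replicate 2 or WT replicate 3. KO replicate 3 had 18694823 counts, within the range of the other libraries. Its hepatoblast and mesenchyme marker sums, given above with its erythroid sum, were the highest of the 6 libraries, but others came close. Mesenchyme markers summed to 769 CPM in KO replicate 1, 754 CPM in WT replicate 3 and 6.49 to 340 CPM in the rest. Hepatoblast markers summed to 1744 CPM in WT replicate 2 and 543 to 1262 CPM in the rest. The part of such cells in the lower values of KO replicate 3 was not tested.

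**Figure D2:**
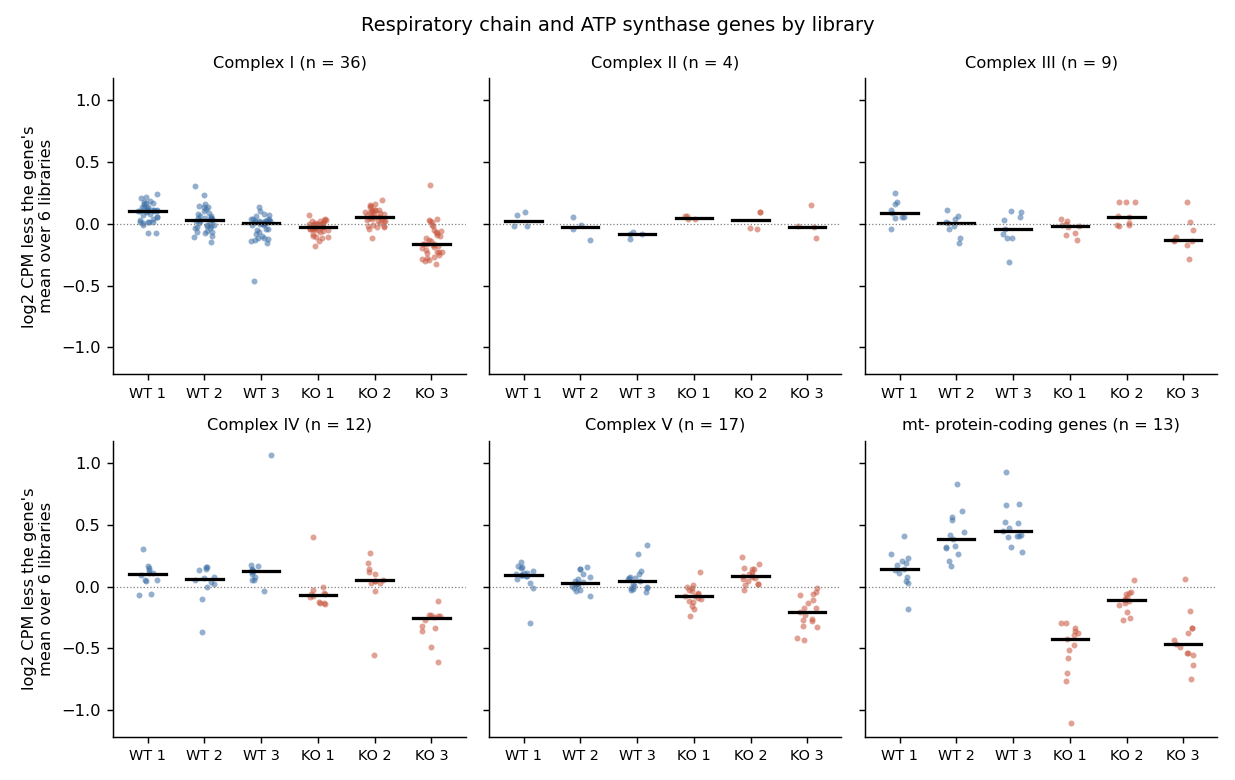
Each point is a gene's log2 CPM (with 0.5 added) less its mean over the 6 libraries (y axis), by library (x axis, WT in blue and KO in red), and black bars are medians over genes. The medians of complexes I, III, IV and V are lowest in KO replicate 3, while for the 13 mitochondrially encoded genes all 3 KO medians lie below all 3 WT medians.

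Many subunits of the chain are short proteins, and short transcripts carried the lower values. Of the 78 tested members, 44 have a longest protein-coding transcript under 1 kb. Among these 40 were below 0 and the median log2 fold change was -0.15, whereas among the 34 members of 1 kb or more 18 were below 0 and the median was -0.01. All 6 members with an unadjusted p under 0.05 were in the short class. The same was seen outside the respiratory chain: 638 other tested coding genes under 1 kb had a median of -0.11, with 70.4% below 0, and 13110 longer ones a median of -0.01, with 52.0% below 0.

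In KO replicate 3, short members stood at -0.24 and other short coding genes at -0.17 on the scale of log2 CPM less the gene's mean. The same classes stood at 0.10 and 0.10 in WT replicate 1, 0.06 and 0.04 in WT replicate 2, and 0.06 and 0.03 in WT replicate 3. In KO replicate 1 both stood at -0.04, and in KO replicate 2 they stood above 0, at 0.06 and 0.07. KO replicate 3 was the lowest library for 39 of 44 short members (88.6%), beside 48.4% of other short coding genes, and for 15 of 34 longer members (44.1%), beside 14.04% of other long ones. Across the 78 members, the Pearson correlation of log2 transcript length with the log2 fold change was 0.58 (Spearman 0.60). Across 13748 other tested coding genes it was -0.02 (Spearman -0.06), so that no such correlation was seen over their whole range of lengths. Both are given as a description, since genes share libraries and are not independent replicates. All 10 short members of complex IV were below 0, with a median of -0.24, and 18 of 20 short members of complex I, with a median of -0.11. With offsets for transcript length and GC content in the fit, the median of all members was -0.02, that of complex IV -0.05 and that of complex III 0.04.

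**Figure D3:**
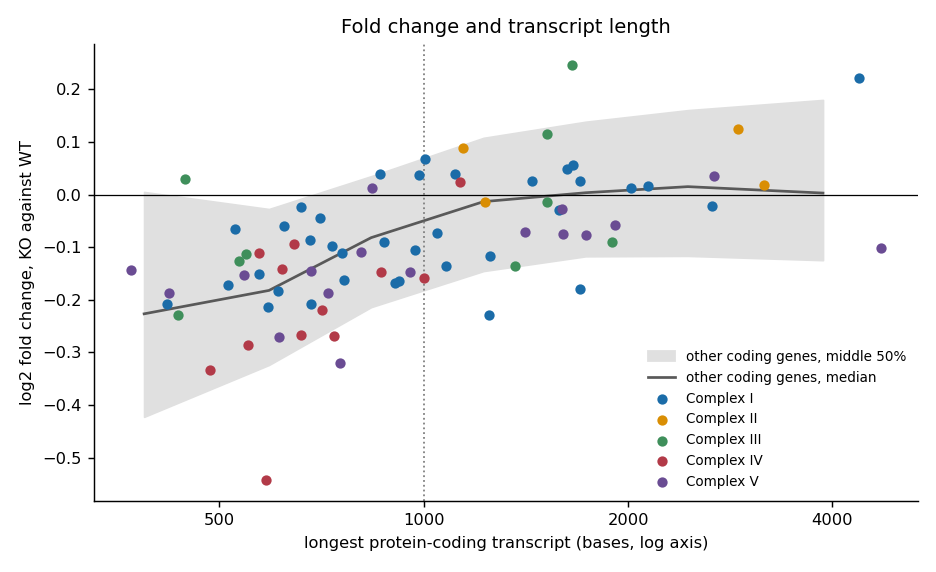
Fitted log2 fold change of KO against WT (y axis) and length of the longest protein-coding transcript (x axis, log scale) for the 78 tested members, coloured by complex. The grey line and band give the median and the middle 50% of other tested coding genes by length. That median lies below 0 for transcripts under 1000 bases (dotted line), where 44 members lie, 40 of them below 0.

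The mitochondrially encoded subunits lay further below 0 than the nuclear ones, a difference between gene sets that was not tested. All 13 protein-coding mt- genes were below 0, beside 54.4% of all genes tested, with a median log2 fold change of -0.66. In 12 of them every KO library was below every WT library, beside 7.99% of all genes tested. By edgeR 0 of 13 were called, with adjusted p from 0.132 to 0.747. At an unadjusted p under 0.05 in edgeR 12 passed, beside 3.97% of all genes in that direction. DESeq2 called 10, beside 0.648% of genes called in that direction. Reads of nuclear copies of mitochondrial DNA could be counted at either place, and *mt-Atp8* overlaps *mt-Atp6* as *mt-Nd4l* overlaps *mt-Nd4*, so that their counts are uncertain.

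*mt-Co3*, a core subunit of cytochrome c oxidase, was at 834, 1105 and 1149 CPM across WT and 426, 685 and 466 CPM across KO (log2 fold change -0.97, SE 0.205, edgeR adjusted p 0.14, DESeq2 adjusted p 0.000136). *mt-Co1* was at 727 ± 94.8 CPM across WT and 505 ± 33.8 CPM across KO, and *mt-Co2* at 464 ± 84.5 CPM and 248 ± 54.8 CPM. *mt-Cytb*, the mitochondrially encoded subunit of complex III, was at 598 ± 46.0 CPM across WT and 392 ± 49.98 CPM across KO (log2 fold change -0.61, edgeR adjusted p 0.132). In all of these genes the lowest WT library was above the highest KO library.

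Among the complex I genes of mitochondrial DNA, *mt-Nd4* had the smallest p, at 132 ± 11.4 CPM across WT and 76.4 ± 7.52 CPM across KO (log2 fold change -0.79, edgeR adjusted p 0.132). *mt-Nd1*, *mt-Nd2*, *mt-Nd3*, *mt-Nd4l* and *mt-Nd5* had log2 fold changes between -1.41 and -0.40. *mt-Nd6*, the one protein-coding gene on the other strand of mitochondrial DNA, was the exception whose groups overlapped, at 7.90 ± 1.67 CPM across WT and 6.2 ± 1.33 CPM across KO. *mt-Atp6* and *mt-Atp8* of complex V had log2 fold changes of -0.59 and -0.63, and the ribosomal RNA genes *mt-Rnr1* and *mt-Rnr2* of -0.83 and -0.82.

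Setting both genomes side by side within a library, the nuclear members took 1.41%, 1.54% and 1.33% of all counts in KO replicates 1, 2 and 3, overlapping the WT shares. The protein-coding mt- genes took 0.323%, 0.398% and 0.417% in WT and 0.212%, 0.276% and 0.212% in KO, without overlap. The ratio of nuclear to mitochondrially encoded counts was 4.71, 3.62 and 3.38 in WT and 6.64, 5.56 and 6.28 in KO, so that the lowest KO value lay above the highest WT value.

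The ratio was higher in KO in each complex that has subunits from both genomes. It was 5.19 ± 0.818 in WT and 7.47 ± 0.599 in KO for complex I (SD, n = 3 each), and 3.32 ± 0.518 and 5.29 ± 0.39 for complex III. For complex IV the ratio was 0.596 ± 0.103 in WT and 0.904 ± 0.103 in KO, and for complex V 22.5 ± 2.97 and 32.3 ± 2.41. The groups did not overlap in any of the 4 complexes. In complex IV the nuclear share itself was 0.129% to 0.130% in WT and 0.116%, 0.129% and 0.0993% in KO, so that KO replicate 2 was level with WT at the digits printed and KO replicates 1 and 3 were lower. In complex III the nuclear shares overlapped, and only the mitochondrially encoded share was separated.

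**Figure D4:**
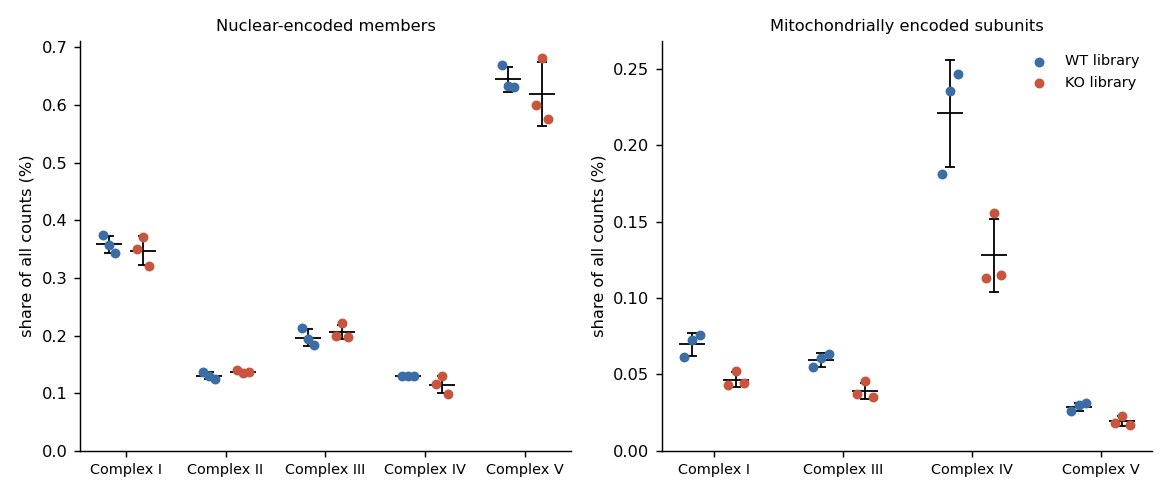
Share of all counts (y axis, percent, from 0) taken by the nuclear-encoded members of each complex (left) and by the mitochondrially encoded subunits of the same complex (right), with a point for each library, and a bar and whiskers for mean and SD of 3 libraries. Nuclear shares of WT (blue) and KO (red) overlap in complexes I, II, III and V, whereas the mitochondrially encoded shares do not overlap in any complex; the vertical scales of the panels differ.

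WT replicate 2 and KO replicate 1 share the leading number of their library names, whose meaning the labels do not give. Between these libraries, 57 of 78 members were lower in KO, beside 8650 of 16353 genes tested, with a median log2 difference of -0.06, beside -0.02 over all genes tested, and 13 of 13 protein-coding mt- genes were lower with a median of -0.77. The remaining libraries share no such number.

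Several subunits have alternative genes that are used in different tissues, with muscle, testis or low-oxygen forms beside a general one. In both genotypes the general form made up nearly all of the signal. *Cox6a1* was at 200.1 ± 3.15 CPM across WT and 185 ± 21.1 CPM across KO, while the heart and muscle form *Cox6a2* had 59 counts in KO replicate 1, 3 in WT replicate 1, 1 in KO replicate 3 and 0 in the other libraries. KO replicate 1 also had the highest sum of 7 heart and skeletal muscle markers, 105 CPM beside 17.1 to 35.3 CPM in the other libraries. The part of such cells in the *Cox6a2* counts was not tested.

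*Cox8a* had no counterpart at a comparable level: the muscle form *Cox8b* had 3 counts in KO replicate 1 and 0 elsewhere, and the testis form *Cox8c* had 0 counts in all libraries, where a count of 0 allows up to 0.173 CPM in the least deep library. *Cox7b2* had 2 counts in WT replicate 2 and 0 in the other libraries. *Ndufa4l2*, a form known from low oxygen, had between 2 and 13 counts per library, or 0.230 ± 0.143 CPM across WT and 0.311 ± 0.162 CPM across KO, beside 158 ± 6.03 CPM of *Ndufa4* in WT. The limit for a count of 0 covers counting error only.

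Some alternative forms were measurable. The testis form *Cox6b2* was at 4.10, 3.24 and 9.61 CPM across WT and 5.85, 2.79 and 2.94 CPM across KO, highest in WT replicate 3, and without that library its log2 fold change turned from -0.54 to 0.11. *Cox7a1*, the heart and muscle form of subunit 7a, was at 2.94 ± 0.365 CPM across WT and 2.33 ± 0.721 CPM across KO, beside *Cox7a2* at 133 ± 0.471 CPM in WT. *Cox4i2*, a form of subunit 4 known from lung and low oxygen, was at 3.79 ± 0.44 CPM across WT and 3.29 ± 0.683 CPM across KO.

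The c-ring of ATP synthase is made of one protein encoded by 3 genes, which differ in their import sequences. Per kb of transcript, *Atp5g3* stood at 508, *Atp5g2* at 122.9 and *Atp5g1* at 42.3 CPM per kb in WT. *Atp5g1* has one annotated transcript far longer than the others, and the order of *Atp5g1* and *Atp5g2* depends on this length. Without regard to length *Atp5g1* was at 199 ± 14.3 CPM in WT cells and *Atp5g2* at 92.5 ± 5.52 CPM, and per kb of the median transcript, which the long transcript still raises for *Atp5g1*, they were at 74.6 and 135 CPM per kb. Their log2 fold changes were -0.19 for *Atp5g3*, -0.32 for *Atp5g2* and -0.10 for *Atp5g1*, with edgeR adjusted p of 0.598, 0.521 and 0.82.

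**Figure D5:**
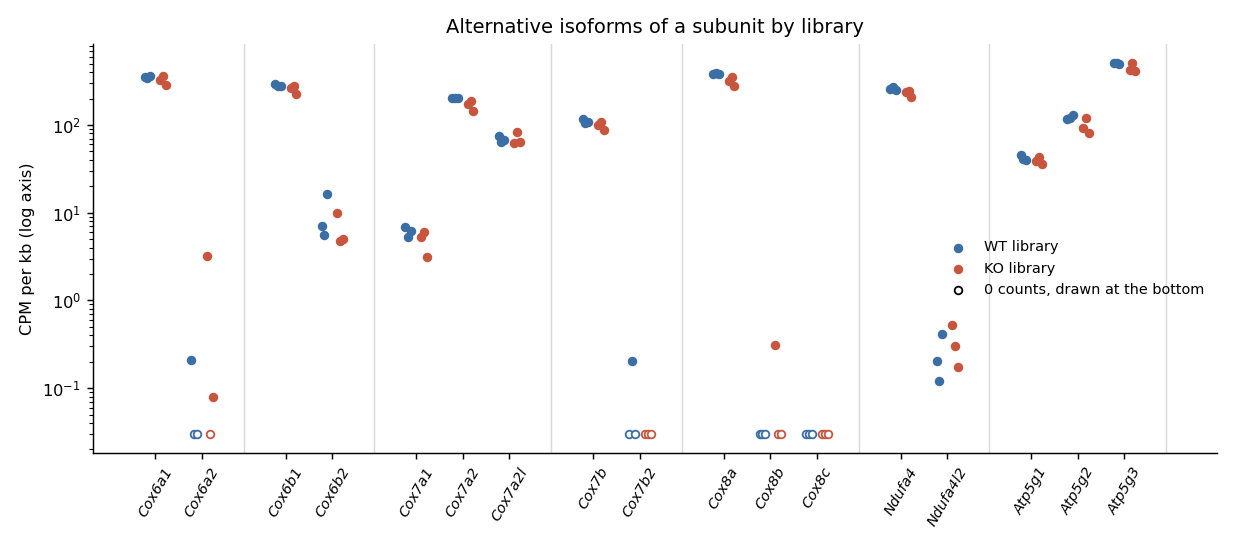
Level in CPM per kb of transcript (y axis, log scale) of alternative genes for the same subunit, with a point for each WT (blue) and KO (red) library; open points at the bottom stand for 0 counts. General forms such as *Cox6a1* and *Cox8a* lie above 200 CPM per kb in all libraries. *Cox7b2*, *Cox8b* and *Cox8c* have 0 counts in most or all libraries, and *Cox6a2* has 0 counts in WT replicates 2 and 3 and KO replicate 2.

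Genes that build or surround the chain were read from the same fit. Of 51 assembly factors 50 were found and 47 tested, with a median log2 fold change of -0.05 and 30 below 0 (63.8%, beside 54.4% of all genes tested). By edgeR 0 were called and 5 of 47 had an unadjusted p under 0.05, a share close to the 10.4% of all genes. All KO libraries were below all WT libraries in 5 of the 47 and above them in 5, beside 7.99% and 8.36% of all genes. The 5 with an unadjusted p under 0.05 are named here after their values were seen. *Ttc19*, a factor of complex III, was at 6.04 ± 2.73 CPM across WT and 14.3 ± 4.75 CPM across KO (log2 fold change 1.251, edgeR adjusted p 0.248, DESeq2 adjusted p 0.015). It rose by the DESeq2 test and was the single assembly factor that DESeq2 called, beside 4.87% of all genes.

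*Foxred1*, which acts on complex I, and *Atpaf2*, which binds the α-subunit of ATP synthase, had log2 fold changes of 0.21 and 0.25. *Timmdc1* and *Coa6*, factors of complexes I and IV, had log2 fold changes of -0.57 and -0.40. The 13 genes of the tricarboxylic acid cycle had a median of 0.01 with 5 below 0, and the 19 genes of the mitochondrial membrane and of protein import one of 0.01 with 8 below 0. In both lists 0 genes had an unadjusted p under 0.05 in edgeR and 0 were called by DESeq2.

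The 9 regulators of respiratory chain transcription had a median log2 fold change of -0.03, and 0 had an unadjusted p under 0.05 in edgeR. *Nrf1* was at 158 ± 23.8 CPM across WT and 161 ± 23.7 CPM across KO, and *Tfam*, which packages and transcribes mitochondrial DNA, at 93.7 ± 6.54 CPM and 87.0 ± 3.94 CPM. *Ppargc1a*, a coactivator known for mitochondrial biogenesis, was at 7.87 ± 1.64 CPM across WT and 7.66 ± 2.23 CPM across KO. By edgeR the adjusted p were 0.981, 0.774 and 0.986 for these 3 genes.

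The deleted cluster encodes miRNAs that pair with 3′UTRs through bases 2 to 8, the seed, printed here in capitals from the RefSeq table of the GRCm38.p6 build to show what was searched for.
mmu-miR-302b-3p, chr3:127545275-127545297, plus strand: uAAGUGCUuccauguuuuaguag
mmu-miR-302c-3p, chr3:127545406-127545427, plus strand: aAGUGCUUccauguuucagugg
mmu-miR-302d-3p, chr3:127545665-127545687, plus strand: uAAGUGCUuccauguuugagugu
mmu-miR-302b-3p and mmu-miR-302d-3p share a seed, and that of mmu-miR-302c-3p is shifted by 1 base. mmu-miR-302a-3p is not shown, and mmu-miR-367-3p, which has another seed, was not searched for here, so the matches do not cover the whole deleted cluster. Matches to bases 2 to 8 of the shared seed, or to bases 2 to 7 followed by A, were counted in the longest 3′UTR of GENCODE M21. They occurred in 6 of 78 tested members, or 7.69%, beside 20.5% of 13831 tested coding genes, and the 3′UTRs of the members were shorter, with a median of 205 bases beside 1177 bases. The log2 fold changes of members with a match ran from -0.18 to 0.22 with a median of 0.00 (0.001), beside -0.11 for members without a match, and over all tested coding genes the medians were -0.03 with and -0.01 without one.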

How the data were processed

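RNA of sorted cells was made into cDNA with a SMART-seq v4 kit and into libraries with Nextera XT. The authors removed low-quality sequence, aligned reads to GRCm39 with STAR, counted them per gene with GenomicAlignments, and deposited raw counts, 1 value per gene and library. Tool versions, gene annotation and the handling of strand are not given in the sources used here, and a gene and an overlapping partner cannot be told apart.

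Libraries were grouped by genotype from the labels, 3 WT and 3 KO. From the counts, edgeR 4.0.16 (R 4.3.3; filterByExpr, TMM, glmQLFit, glmQLFTest with defaults, genotype as the only term) was fitted to the whole table, with Benjamini-Hochberg adjustment over all 16353 genes tested. CPM are TMM-scaled. Standard errors were taken as the log2 fold change over the root of F, and 95% intervals from the t distribution with 3.26 prior and 4 residual degrees of freedom. DESeq2 1.42.0 was run on genes with at least 1 count. On simulated counts of 16353 genes in the KO against WT design, edgeR called 56.7% of 97 genes changed by 1 on the log2 scale and 93.2% of 103 changed by 2, and DESeq2 59.8% and 98.1%. Among genes left unchanged, edgeR called 3 and DESeq2 22. Changes under 1 on the log2 scale, where the members lay, were not simulated. Transcript lengths and 3′UTRs came from GENCODE M21, and symbols from a table of Ensembl names.

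Members, lists and alternatives were chosen with earlier results of these data known. Genes were named by rule. In each complex these were those with the smallest p and the highest level per length, and over all members the 3 furthest up and down by p. Further ones were alternative isoforms, *Sdh* genes, 4 genes chosen among those that the symbols miss, mt- genes, and members that the filter removed. The core subunit genes of complex I, further members of complexes III to V named for their role, and single genes of the other lists were named after their values were seen. The classes by transcript length were also set after the data were seen. Replicate numbers were not used to pair the libraries in the main fit. Alternatives covered normalization, filter, test, spread, length and GC offsets, the replicate block and each library left out.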

Additional observations from a re-analysis of the deposited data

How the results depend on the processing

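Of the members, 0 were called in the main fit and in each of the 14 alternatives. The count of members with an unadjusted p under 0.05, 6 as reported, was 3 with DESeq2, 3 with offsets for transcript length and GC content, 0 without the 2 libraries with most globin counts (an alternative chosen after seeing the data), and 0 to 10 when a library was left out. The median log2 fold change of the members ran from -0.14 to -0.00401 when a library was left out. With a library left out, it ran from -0.117 to 0.0238 for complex I, from 0.0507 to 0.11 for complex II, from -0.117 to 0.0111 for complex III and from -0.236 to -0.0613 for complex IV. With the offsets it was 0.0381 for complex III and -0.0509 for complex IV. The count of protein-coding mt- genes called, 0 of 13 by edgeR as reported, was 4 without the filter, beside 0.875% of all genes. It was 10 with DESeq2, beside 4.87% of all genes, and 0 with any library left out. Over all mt- genes, those of ribosomal and transfer RNA included, the counts were 5 without the filter, 12 with DESeq2 and 0 to 1 with a library left out. By median transcript length, levels in CPM per kb had medians of 126 in complex I, 266 in complex II, 186 in complex IV and 275 in complex V, an alternative chosen after seeing the data. No change of sign was of a called gene. *Sdhd* was at 0.0039 with DESeq2 size factors, 0.00661 with DESeq2 and 0.0439 with the offsets, *Ndufa7* and *Uqcrh* at 0.0496 and 0.0381 with the offsets, and *Ndufab1* at 0.0115 without the globin-rich libraries. With a library left out, *Sdhd* ran from -0.0249 to 0.0355, *Cycs* from -0.0017 to 0.10, *Cox6b2* from -0.97 to 0.11, *Uqcr11* from -0.0375 to 0.14, *Cox7a2l* from -0.11 to 0.12, *Sdhc* from -0.0081 to 0.11, *Ndufa7* from -0.10 to 0.0364 and *Cox6a1* from -0.18 to 0.0044. The causes were not tested. Libraries with the same replicate number deviated with correlations of -0.211, 0.251 and 0.0779, and pairs with different numbers from -0.307 to 0.336. Such correlations cannot show whether same-numbered libraries shared a litter or a batch. With the replicate block 0 members were called, 6 had an unadjusted p under 0.05 in edgeR, and the median of the members was -0.10. Shares of counts moved by less than the spread between replicates under other totals, and on a 200-base stretch of the promoters the NRF1, GABP and YY1 shares were 13.2%, 22.1% and 13.2% for members, beside 3.25%, 8.53% and 3.77% of all genes, lower than on 300 bases in each case. At these depths low isoforms such as *Cox8b* rest on a few counts.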
